A study of Mus musculus with 15 samples.

Results

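The Sp110 and Sp140 nuclear body gene cluster comprised 4 genes of mouse chromosome 1: Sp110, Sp140, C130026I21Rik and A530032D15Rik. They were chosen, from the 7814 genes named in the deposited lists of histone H3 changes, by their entries in those lists and by the segments of ACF1 state E2 that overlap them between 84 and 88 Mb. Their counts below use the readouts they were selected on, so they are descriptions and carry no test. The study compared nucleus accumbens tissue, a reward region of the ventral forebrain, from C57BL/6 mice. Control mice stood beside mice that went through 10 days of chronic social defeat stress, in which an aggressive CD1 mouse defeats the test mouse. A social interaction test separated the stressed mice into susceptible and resilient groups, and the tissue was dissected 48 hours after the final session. Every library pooled punches from 10 mice and held all cell types of the punch. Sheared chromatin was precipitated with an ACF1 antibody, and chromatin cut with micrococcal nuclease (MNase) with an H3 antibody. ACF1 is the accessory subunit that, with the ATPase SNF2H, forms the ACF complex, which slides and spaces nucleosomes.

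Sp110 and Sp140 belong to the speckled protein family with Sp100. These proteins sit in nuclear bodies, small protein assemblies within the nucleus, and several carry a SAND domain, which binds DNA, and a bromodomain, which reads acetylated histones. The family is induced by interferon and is best known from leukocytes, and mouse Sp110, also called Ipr1, lies in a locus studied for susceptibility to tuberculosis. The roles of C130026I21Rik and A530032D15Rik are less well described.

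Each group had 1 deposited ACF1 segment list, and each pair of groups 1 list of H3 occupancy changes and 1 list of H3 shifts, although the labels speak of 3 replicates. No spread between replicates could be computed, so no difference between groups below has a replicate check. The lists carry no read counts, so the depth behind each position is unknown. An occupancy entry gives a position and the word Up or Down, with no size, and Up is read here as higher in the first-named group. The opposite reading would turn every direction. The lists do not say which segment state marks ACF1 binding, and E2 was the rarer state, covering 0.0983% of the segmented genome in control, 0.16% in susceptible and 0.108% in resilient mice. In bulk tissue, fewer cells of a type and less signal per cell cannot be told apart. The susceptible against control lists held far more chromosome 1 entries than the others, 32791 of 49408 occupancy positions, of which 1.79% were Up on chromosome 1. Directions are therefore described from the resilient against control and resilient against susceptible lists, with the third given beside them.

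The promoters are shown because those of 3 of the 4 genes carry the same sequence, which bears on how reads can be assigned to these genes. RefSeq windows of build GRCm38.p6 were found for all 4 genes, with 2 starts for Sp110. Start 1 lies before the Sp140 start on the chromosome and start 2 beyond it. The 250 bases upstream of each start follow, read 5′ to 3′ on the gene's own strand. Capitals in A530032D15Rik, C130026I21Rik and Sp140 mark the part of a stretch of 146 bases identical in the windows of those 3 genes. Capitals mark a GGGCGG motif at Sp110 start 1 and a TATAA motif at Sp110 start 2.
A530032D15Rik: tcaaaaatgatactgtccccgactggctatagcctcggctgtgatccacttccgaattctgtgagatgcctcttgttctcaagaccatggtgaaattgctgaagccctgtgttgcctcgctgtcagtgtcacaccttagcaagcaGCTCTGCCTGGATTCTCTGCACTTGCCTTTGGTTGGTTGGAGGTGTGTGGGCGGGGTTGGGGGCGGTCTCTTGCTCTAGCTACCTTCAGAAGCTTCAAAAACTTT
C130026I21Rik: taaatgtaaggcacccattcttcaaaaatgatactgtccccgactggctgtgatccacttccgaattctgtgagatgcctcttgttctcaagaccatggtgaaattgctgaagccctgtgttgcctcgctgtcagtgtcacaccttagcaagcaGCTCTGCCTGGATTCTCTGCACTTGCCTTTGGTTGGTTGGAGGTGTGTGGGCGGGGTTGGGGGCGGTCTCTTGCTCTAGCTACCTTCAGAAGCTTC
Sp140: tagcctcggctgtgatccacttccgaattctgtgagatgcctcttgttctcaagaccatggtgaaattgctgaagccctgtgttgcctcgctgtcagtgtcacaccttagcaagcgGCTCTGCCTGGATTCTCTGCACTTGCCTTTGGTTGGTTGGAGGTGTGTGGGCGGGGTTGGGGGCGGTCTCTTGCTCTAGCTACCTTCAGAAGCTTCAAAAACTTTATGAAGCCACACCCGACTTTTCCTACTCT
Sp110 start 1: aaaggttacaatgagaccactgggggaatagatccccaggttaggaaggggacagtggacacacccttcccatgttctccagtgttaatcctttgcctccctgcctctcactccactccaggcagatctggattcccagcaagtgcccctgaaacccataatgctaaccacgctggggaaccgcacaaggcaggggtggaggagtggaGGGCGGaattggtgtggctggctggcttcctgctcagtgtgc
Sp110 start 2: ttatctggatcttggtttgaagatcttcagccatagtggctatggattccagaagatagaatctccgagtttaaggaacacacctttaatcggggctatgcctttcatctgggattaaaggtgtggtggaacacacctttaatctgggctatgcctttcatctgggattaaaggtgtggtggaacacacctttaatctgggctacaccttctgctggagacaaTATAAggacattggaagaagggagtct

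The A530032D15Rik and C130026I21Rik windows, each of 300 bases with 50 past the start, shared an identical stretch of 255 bases. A530032D15Rik and Sp140 shared 155 bases. Neither Sp110 window shared more than 9 bases in a row with a window of the other genes. Reads in the study were 100 bases long. Of the 201 stretches of 100 bases in the A530032D15Rik window, 172 (85.6%) also occurred in the window of C130026I21Rik or Sp140. For C130026I21Rik this was 156 of 201 (77.6%), and for Sp140 72 of 201 (35.8%). No other gene among 32851 RefSeq windows held any of these stretches. Only identical stretches were counted. The printed Sp140 bases upstream of the capitals also match A530032D15Rik except at the base just before the capitals, so the Sp140 count leaves out near-identical stretches. At Sp110, start 1 shared none, and start 2 shared 11 of 201 (5.47%) with the windows of 8 other genes. How reads from such shared stretches were placed is not given in the sources used here, and their part in the results below was not tested.

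GGGCGG, searched on both strands, occurred 2 times upstream of A530032D15Rik, C130026I21Rik and Sp140, within the shared stretch. It occurred once upstream of Sp110 start 1 and not upstream of start 2. Of all windows, 32.7% held it. TATAA was found upstream of Sp110 start 2 alone, against 22.8% of all windows. The core of the interferon-stimulated response element, searched as GAAA, any 2 bases and GAAA again, was in none of the 5 stretches and in 2.98% of all windows. A match or its absence describes these letters in this window only.

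In the authors' coordinates (build mm9), the genes formed 2 pairs. A530032D15Rik (NM_213615, minus strand, chr1:85084714-85106428) and C130026I21Rik (NM_001037909, minus strand, chr1:85242919-85267141) lay 136 kb apart. Sp110 (minus strand) started at 87495385 in transcript NM_030194 and at 87500466 in NM_175397, and both ended at 87473475. Sp140 (NM_001013817, plus strand, chr1:87497278-87541611) overlapped the longer Sp110 transcript by 3.19 kb. The distance from C130026I21Rik to Sp110 was 2.21 Mb. Positions in the overlap of Sp110 and Sp140 cannot be given to either gene alone, and the assignments used are those of the deposited lists.

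ACF1 state E2 covered Sp110, C130026I21Rik and A530032D15Rik over 100% of their length in control, susceptible and resilient mice. Sp140 was covered over 100% in control, 92.3% in susceptible and 81.9% in resilient mice. Sp140 was thus the 1 gene of the 4 whose cover differed between the lists. Among all 7814 named genes, 0.218% in control, 0.384% in susceptible and 0.282% in resilient mice were covered over at least 50% of their length. Any E2 at all was present at 1.89%, 2.55% and 1.47% of genes. Since E2 was part of the choice, nothing is read from these counts. Summed over the 3 groups, Sp140 held the third-largest E2 length of all named genes, Sp110 ranked 7, C130026I21Rik 9 and A530032D15Rik 10.

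**Figure D1:**
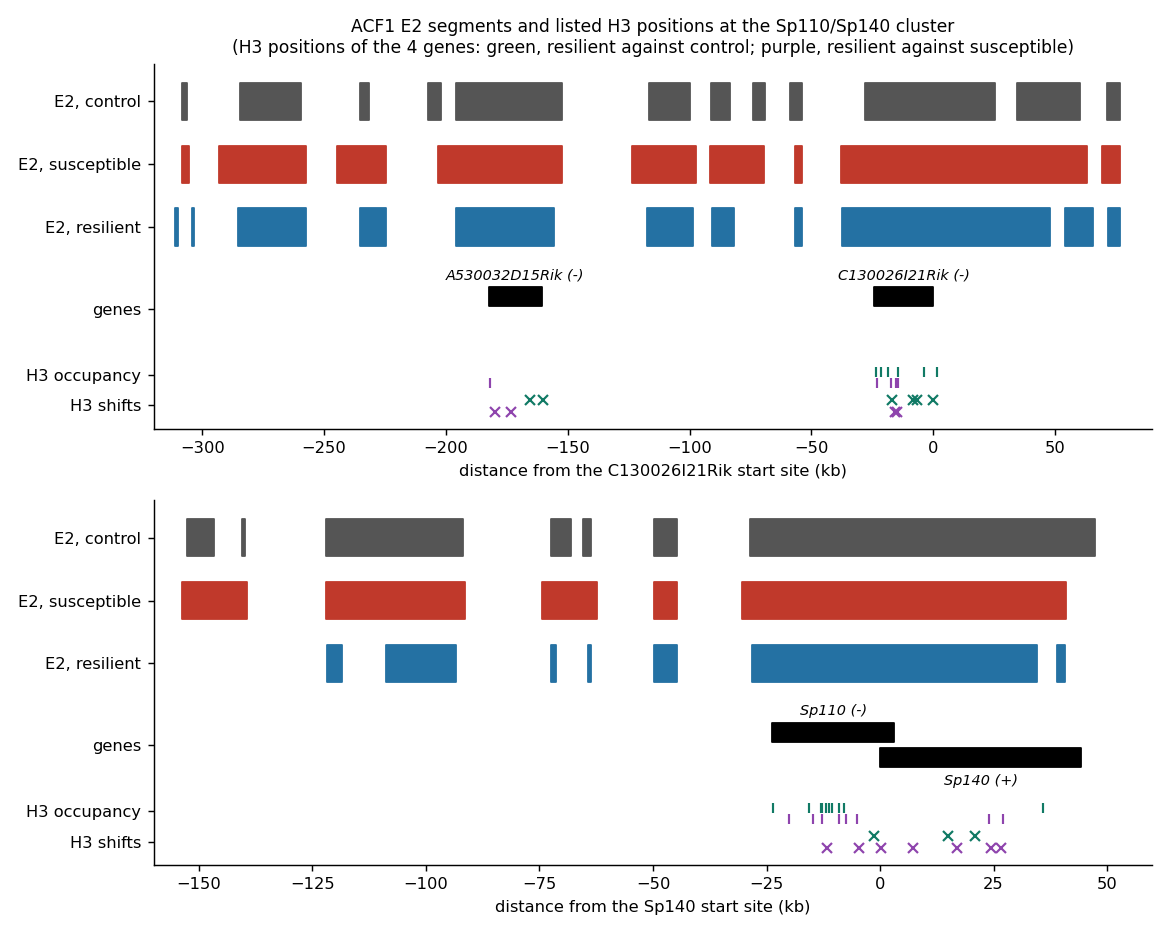
E2 segments in each group (grey control, red susceptible, blue resilient), the 4 genes (black) and their listed H3 positions, against distance in kb from the C130026I21Rik start (top) or the Sp140 start (bottom). Green marks stand for resilient against control and purple for resilient against susceptible, and all 3 segment lists cover the gene bodies except in the 3′ part of Sp140.

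Sp110 and Sp140 lay under a single segment in control mice, chr1:87468601-87544600 (76000 bp), which ran past the 3′ end of Sp140. In susceptible mice the segment was chr1:87466801-87538200 (71400 bp) and left the last 3411 bp of Sp140 without E2. In resilient mice it was chr1:87469001-87531800 (62800 bp), followed by a separate segment of 1800 bp. This left 4400 bp of Sp140 (chr1:87531801-87536200) and its last 3611 bp without E2. The differences therefore lay in the distal part of Sp140, and its start was in E2 in all 3 groups.

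C130026I21Rik lay in a segment of 53200 bp in control mice, which measured 100800 bp in the susceptible and 85600 bp in the resilient list. The control list had a further segment of 26000 bp, chr1:85301401-85327400, over a stretch that the susceptible segment spans without a break. The widths over C130026I21Rik thus also reflect where segments were split. The segment over A530032D15Rik measured 43800 bp in control, 51000 bp in susceptible mice and 40400 bp in those scored resilient. For A530032D15Rik, the susceptible segment was the widest and the resilient the narrowest, with the gene itself inside all of them. No interval can be given for any of these widths.

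**Figure D2:**
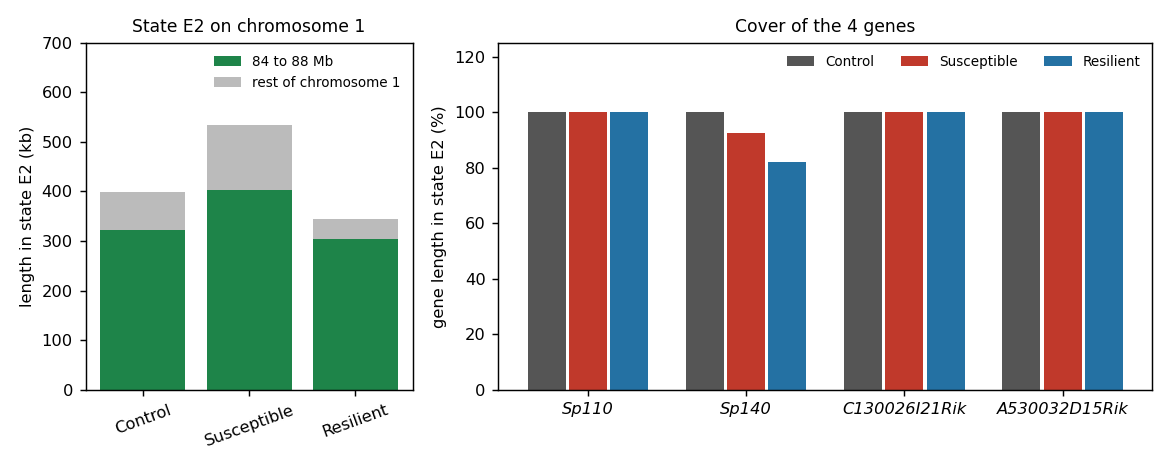
Percent of each gene's length in ACF1 state E2, 1 bar per group and no error bar because each group has 1 deposited list. On the right, bars reach 100% everywhere except Sp140 in susceptible (92.3%) and resilient (81.9%) mice.

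From 84 to 88 Mb, all E2 but 1 segment of 1000 bp in susceptible mice fell into 2 blocks, one of 388 kb around A530032D15Rik and C130026I21Rik and one of 201 kb around Sp110 and Sp140. State E2 filled 51.2% of the first block in control, 69.3% in susceptible and 55.2% in resilient mice. In the block of Sp110 and Sp140 it filled 61.7%, 66.4% and 44.9%. By the part filled, the order was susceptible, resilient, control in the first block and susceptible, control, resilient in the second. The susceptible list held the most E2 genome-wide. Of each list's whole E2, the first block held 7.62% in control, 6.34% in susceptible and 7.48% in resilient mice. The second block held 4.75%, 3.15% and 3.15%. By this share the control list came first in both blocks. From 84 to 88 Mb, which is 2.03% of chromosome 1, lay 81.1% of that chromosome's E2 in control, 75.4% in susceptible and 88.2% in resilient mice. Of the 4 genes' length, 93% was E2 in all 3 lists (106064 of 114075 bp). Of the base pairs that were E2 in at least 1 list, this was 62.7% from 84 to 88 Mb and 34% genome-wide. The genes were chosen for their E2, so nothing is read from this difference. A segment of 5000 bp upstream of the Sp110 and Sp140 segment, chr1:87447601-87452600, had the same bounds in all 3 lists and lay in no named gene.

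The next gene beyond Sp140 was Sp100, which encodes the founding member of the family. Sp100 (chr1:87546625-87606023) held no E2 in any list. The last segment ended 2024 bp before Sp100 in the control list, 8424 bp in the susceptible list and 8624 bp in the resilient list. Of the 14 other genes named from 84 to 88 Mb, only Gm7609 held E2, over 3952 bp in the control list, 1615 bp in the susceptible list and 0 bp in the resilient list.

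Listed H3 occupancy changes at the 4 genes were mostly Down in resilient mice against both other groups. Against control, resilient mice had 16 positions, 1 Up and 15 Down, where 61.7% of that whole list was Down. Against susceptible mice they had 13 positions, 2 Up and 11 Down, where 51.1% of the list was Down. Both comparisons use the same resilient library, so they are not separate evidence. In the susceptible against control list the genes had 30 positions, 5 Up and 25 Down. Down made up 85.2% of that whole list, 98.2% of its chromosome 1 positions and 59.6% of those elsewhere. Up made up 16.7% at the genes and 1.79% on chromosome 1. Of all named genes, 49% had an occupancy entry when resilient mice were set against control, 45.5% when set against susceptible mice and 60.2% in the third list. Sp110, Sp140 and C130026I21Rik had entries in all 3 lists and A530032D15Rik in 2.

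Sp110 had the most positions of the 4 genes in each list. Resilient against control listed 9 over 15.6 kb of its body, with a median spacing of 990 bp. Down stood at 87473802, 87481742, 87484312, 87485292, 87485942, 87486652, 87488272 and 87489402, and Up at 87484442. Against susceptible mice, 6 were listed, Down at 87477172, 87482522, 87488242, 87489762 and 87492122 and Up again at 87484442. The only position listed at the same base for these genes in both resilient lists was thus the Up position of Sp110. The Down positions 87488272 and 87488242 of the 2 lists lay within 100 bp of each other. In susceptible against control, Sp110 had 11 positions, 10 of them Down.

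Sp140 had few occupancy entries beside its neighbour. Resilient against control listed 1, Down at 87533222, which lies in the 4400 bp where resilient mice had no E2 and both other groups had it. Resilient against susceptible listed Down at 87521352 and 87524382, both in E2 in all 3 lists. Susceptible against control listed 8, of which 7 were Down. Down at 87532302 lies in the same 4400 bp, where control and susceptible mice both had E2. Down at 87539442 lies near the end of Sp140, where only the control list had E2. Sp100, next to Sp140, had no position against control and 3 against susceptible mice, 2 Up and 1 Down.

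C130026I21Rik was listed 6 times in resilient against control, all Down, at 85243732, 85245812, 85248692, 85252872, 85263342 and 85268792. The last lies upstream of the start and the others in the gene body. Resilient against susceptible listed 4, Up at 85243892 and Down at 85249662, 85251872 and 85252782. A530032D15Rik had no occupancy entry against control and 1 against susceptible mice, Down at 85085042. C130026I21Rik and A530032D15Rik thus differed in count in both resilient lists. In susceptible against control, C130026I21Rik had 9 positions, 2 Up and 7 Down, and A530032D15Rik had 1 Up and 1 Down.

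**Figure D3:**
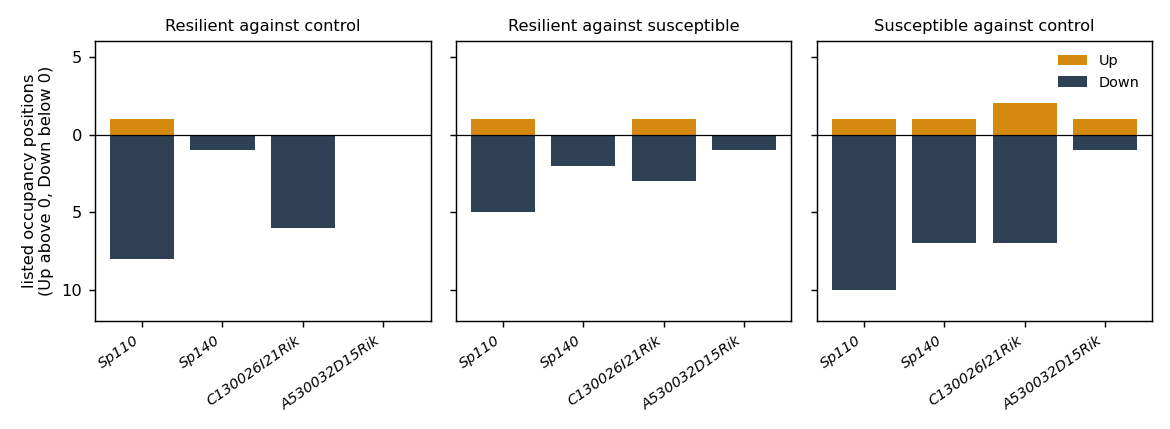
Number of listed H3 occupancy positions of each gene in each pair of groups, Up and Down shown apart. Sp110 leads with 9, 6 and 11 positions, and summed over the 4 genes Down outnumbers Up in every list (15 to 1, 11 to 2 and 25 to 5). In the susceptible against control list, 98.2% of all chromosome 1 positions are Down.

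Listed nucleosome shifts were between 60 and 80 bp in size at the 4 genes, with either sign. The sign convention is not given in the sources used here. Resilient against control listed 9 shifts at the genes, 6 positive and 3 negative, and resilient against susceptible 11, 6 positive and 5 negative. All 4 genes had a shift in each list, where 1.96% and 1.63% of named genes had any. In susceptible against control they had 79 shifts, 41 positive and 38 negative, where 7.31% of genes had any. The whole lists were 51%, 52.4% and 51.6% positive. No sign prevailed at these genes in the susceptible against control list, and in the resilient lists the counts are too few to describe one.

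Sp110 had 1 shift in resilient against control, -60 bp at 87495892. Against susceptible mice it had 3, -60 bp at 87485612, +80 bp at 87492662 and -80 bp at 87497592. The lists class the last 2 as promoter positions, 1 for each transcript. Sp140 had +80 bp at 87512332 and +70 bp at 87518232 against control. Against susceptible mice Sp140 had 4 shifts, +60 bp at 87504482, -60 bp at 87514222, +70 bp at 87521612 and -70 bp at 87523882. No shift position of these genes was shared between the resilient lists.

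C130026I21Rik had 4 shifts in resilient against control, and 2 genes of the whole list had more. They were +70 bp at 85250292, -70 bp at 85258892, -80 bp at 85260632 and +60 bp at 85266942. The last lies 199.5 bp from the start site, inside the gene. Against susceptible mice it had +80 bp at 85251452 and -70 bp at 85252262. A530032D15Rik had +60 bp at 85101512 and +80 bp at 85106832 against control, the latter 403.5 bp upstream of its start. Against susceptible mice it had +60 bp at 85087122 and +80 bp at 85093822. In susceptible against control, A530032D15Rik had 11 shifts, 6 positive and 5 negative, and C130026I21Rik 25, 12 positive and 13 negative.

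**Figure D4:**
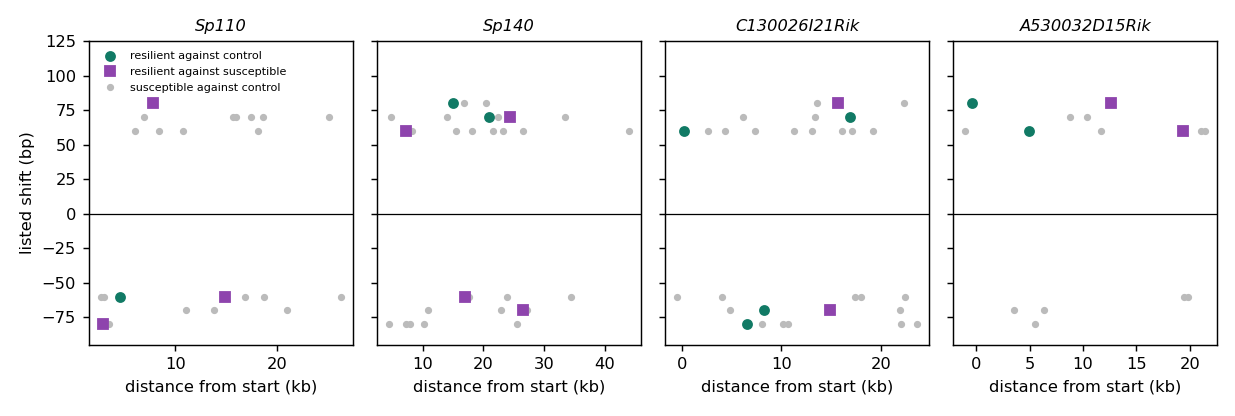
Listed nucleosome shift in bp (vertical axis) against distance from each gene's start in kb, with the start of the longer transcript used for Sp110 (green, resilient against control, purple, resilient against susceptible, small grey, susceptible against control). Points spread over the gene bodies and lie at sizes of 60 to 80 bp on both sides of 0.

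The 4 genes held 9 of 612 shifts (1.47%) and 11 of 561 (1.96%) of the resilient lists. Densities here count positions inside the gene bounds, 8 shifts and 15 occupancy positions in resilient against control. The other counts use the listed gene name. Shifts stood at 70.1 per Mb over the genes in resilient against control, against 0.231 per Mb of genome, a ratio of 304. In resilient against susceptible they stood at 96.4 against 0.211 per Mb, a ratio of 456. Occupancy positions were denser than the genome by less, 131 against 6.61 per Mb (a ratio of 19.9) and 114 against 6.13 per Mb (18.6). Relative to occupancy entries, the genes thus had more shifts, with 56.2 shifts for every 100 occupancy positions against 3.49 in the whole resilient against control list. In resilient against susceptible these values were 84.6 and 3.45. Inside segments that were E2 in all 3 ACF1 lists, resilient against control listed 72 shifts beside 156 occupancy positions, the genes' own included. Resilient against susceptible listed 71 beside 162 there. A raised number of shifts relative to occupancy entries was thus listed across E2 and was not particular to these genes. In susceptible against control, occupancy density over the genes was 1.42 times that of chromosome 1 and shift density 39.6 times. In that list, which has the chromosome 1 excess, the shift density stood further above that of the chromosome than the occupancy density did. The genes were chosen on these entries and the lists share groups, so these densities are descriptions and not separate evidence.

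**Figure D5:**
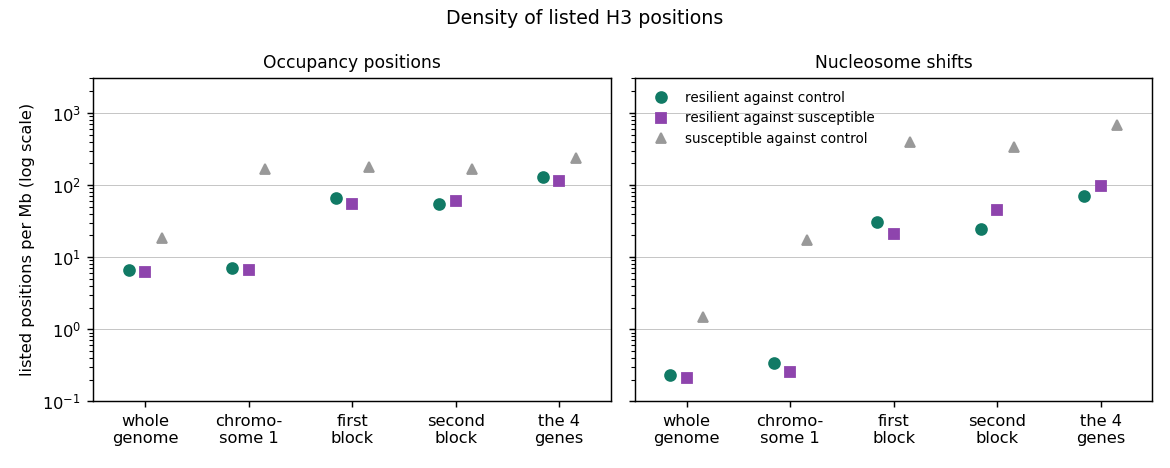
Listed H3 positions per Mb, on a log scale, over the whole genome, chromosome 1, the first and second E2 block and the 4 genes, for occupancy (left) and shifts (right). Shift density rises from 0.231 per Mb of genome to 70.1 per Mb over the genes with resilient set against control, and from 0.211 to 96.4 with resilient set against susceptible.

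The density was not limited to the gene bodies. The 2 blocks, 0.0222% of the segmented genome, held 17 shifts in each resilient list, of which 9 and 11 were given to the 4 genes and the rest to no named gene. They held 25.4% of the chromosome 1 shifts against control and 34% of those against susceptible mice. Of the occupancy positions in the blocks, 32 of 37 were Down against control and 31 of 33 against susceptible. Between the blocks, 2 Mb of mm9 coordinates held no E2 and no H3 entry in any list. Chromosome 1 as a whole held 166 occupancy positions per Mb in susceptible against control. Whether reads can align within these 2 Mb was not tested, so the absence of entries is not read as a property of the chromatin.

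Nearly all H3 entries of the genes lay in segments that were E2 in all 3 ACF1 lists. For occupancy this was 15 of 16 positions against control (0.889% of that whole list) and 13 of 13 against susceptible mice (0.996%). Susceptible against control gave 28 of 30 (0.457%). For shifts it was 9 of 9, 11 of 11 and 78 of 79, where the whole lists gave 11.8%, 12.7% and 5.45%. The genes' shares follow from their near-complete cover.

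For comparison, the 3 genes elsewhere with the greatest summed E2 length were Gm13152, Sfi1 and 2610005L07Rik. Sfi1, a centrosome gene on chromosome 11, was covered over 91.9% in control, 100% in susceptible and 73.8% in resilient mice, and so, like Sp140, had its lowest cover in resilient mice. Sfi1 had 69.6 and 84.6 shifts for every 100 occupancy positions in the resilient lists, beside 56.2 and 84.6 for the 4 cluster genes. Gm13152 on chromosome 4 had 27.6 and 31.6. In susceptible against control the cluster genes had 263, Sfi1 34.3 and Gm13152 61.1, so Sfi1 was near the cluster in the resilient lists and far below it in the third. That list has its excess on chromosome 1, with 10.3 shifts for every 100 occupancy positions there and 7.98 in the whole list. Cluster and chromosome cannot be told apart in this contrast, as Sfi1 and Gm13152 lie on other chromosomes. Occupancy positions of Sfi1 were Down in 22 of 23 against control and 26 of 26 against susceptible mice. Those of Gm13152 were Down in 26 of 29 and 16 of 19. A majority of Down positions in resilient mice was thus also listed at Sfi1 and Gm13152, E2-rich genes outside the cluster. The third gene, 2610005L07Rik, had E2 over 88.7%, 100% and 88.6% of its length, with 2 occupancy positions against control, none against susceptible mice and no listed shift.

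Other genes of the pathway were described from lists of nuclear body, interferon and cell type genes. Of 22 nuclear body genes 11 were named in the H3 lists, and none but Sp110 and Sp140 held E2. Without these 2 genes, 6 had occupancy entries in resilient against control: Hipk2, Morc3, Pias1 and Rnf4 Up, and Hira and Sae1 Down. In resilient against susceptible, Sp100 and Senp1 had 2 Up and 2 Down in all. Of 28 interferon response genes 6 were named, none with E2 or a shift. Against control, Mx1 and Stat2, an antiviral effector and a signal transducer of the interferon receptor, had 3 positions, all Down. Against susceptible mice, Ddx58 and Rsad2, a sensor of viral RNA and an antiviral enzyme, had 2, both Up.

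Among the microglia markers, Cx3cr1 and Tmem119 had 1 position each in resilient against control, both Down, and Itgam and Trem2 had 1 each in resilient against susceptible, both Up. Of 10 medium spiny neuron markers 4 were named, of 5 astrocyte markers 2, of 5 oligodendrocyte markers 0 and of 5 B lymphocyte markers 3, none with E2. Against control, the medium spiny neuron markers Drd2, Foxp1 and Rgs9 had 1 Up position each and Tac1 had 1 Down. The astrocyte markers had 1 Up and 1 Down, and the B lymphocyte markers 3 Up and 4 Down. The lists hold no expression, so the labelled tissue could not be checked against its markers, and the part of cell composition in the results at Sp110 and Sp140 was not tested.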

How the data were processed

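ACF1 segments and H3 positions were analysed as deposited, in bp of build mm9 per the submitters' processing notes, which also name CASAVA 1.8.2. The aligner and the callers of segments, occupancy changes and shifts have no name in the sources used here. The authors' segment lists tile each chromosome in steps of 200 bp with 2 states. The deposited H3 lists give a position, Up or Down or a signed shift, and a gene with its bounds. Groups were read from the labels and pairs from the names of the deposited lists. SNF2H and input samples were not analysed here, and 1 gene of the lists is not reported here.

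H3 entries were given to a gene by the listed gene name, and E2 cover is the overlap of segments with the listed bounds. Densities per Mb over the genes count the positions inside those bounds instead. Positions are 1-based. Listed gene starts were read as 0-based, and 1 was added to those printed. Named are the 4 genes, their neighbours from 84 to 88 Mb, preset lists, the 3 genes elsewhere with most E2 and Mroh2a. Members and lists were chosen with earlier results of these data known. With 1 list per group or pair, no test was run. Promoter windows came from RefSeq (GRCm38.p6) and were matched by symbol, with no coordinates carried between builds. Alternatives were wider bounds, position-based assignment, merged neighbouring positions, longer or mostly contained segments and looser matching of positions. The interval arithmetic was tested on simulated data. Python 3.11.15, pandas 2.3.3, numpy 2.4.6 and matplotlib 3.10.9 were used.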

Additional observations from a re-analysis of the deposited data

How the results depend on the processing

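Of 54 alternative values for 21 counts and lengths, 49 stayed within 1.5 times the reported value. With gene bounds widened by 10 kb, Down positions in resilient against susceptible went from 11 to 17, and Up positions in susceptible against control from 5 to 8. Counting only segments at least 50% inside 1 gene lowered the covered length from 114075 to 68137 bp in control and from 110664 to 64726 bp in susceptible mice, as the segments over C130026I21Rik and A530032D15Rik are then left out. Matching within 100 bp, 3 positions rather than 1 were shared by the resilient lists. The added ones, at Sp110 and at C130026I21Rik, were Down in both lists. No paired analysis was possible because each result comes from 1 list with no test, and for the same reason no replicate could be left out. The absence of read counts limits all directions to those the authors called.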

Other observations

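Some positions of these genes carried an occupancy entry in 1 list and a shift in another. Sp110 positions 87481742, 87486652 and 87489402 were Down in resilient against control and shifted by -60, -70 and -70 bp in susceptible against control. Position 85266942, at the C130026I21Rik start, shifted by +60 bp in resilient against control and was Down in susceptible against control. Sp140 position 87512332 shifted by +80 bp in resilient against control and was likewise Down in susceptible against control. At Sp110 position 87485612, a shift of -60 bp in resilient against susceptible met an Up entry in susceptible against control. These lists share groups, so such coincidences are values only.

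Of 4 spacings between starts, 1 differed between builds. From the C130026I21Rik start to the Sp110 start lay 2228244 bp in the mm9 lists and 328244 bp in GRCm38.p6. The distance from A530032D15Rik to C130026I21Rik was 160713 bp in both. RefSeq places 5 genes between C130026I21Rik and Sp110 in GRCm38.p6: Gm2619, Gm7592, Gm7281, Gm2666 and Gm2427. The stretch of 2 Mb without any E2 or H3 entry lies in the interval that is longer in mm9. Whether that stretch holds bases to which reads can align was not tested.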
